A study of Mus musculus with 3 samples.

Results

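Called regions of 2 histone marks were examined at the genes of the DNA methylation machinery in mouse primordial germ cells: Dnmt1, Uhrf1, Dnmt3a, Dnmt3b and Dnmt3l. Every region of either mark that shared at least 1 bp with a fixed window around 1 of the 5 genes was taken. This gave 37 of the 66659 called regions, 27 of 47928 for H3K4me3 and 10 of 18731 for H3K27me3. The windows are set by gene position and not by a value of either list, but the genes were chosen with earlier results of these data known.

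Primordial germ cells are the embryonic precursors of eggs and sperm. They were sorted by FACS as the GFP-positive cells from gonadal regions of E11.5 embryos, pooled over embryos, from a transgenic Oct4:GFP B6 line crossed to Swiss-Webster females, so the identity of the cells rests on this reporter of Oct4, a gene of pluripotent and germ cells. Markers of other cell types were not examined. Aliquots of 104000 and 97000 cells were each split 3 ways, for precipitation of H3K4me3, for precipitation of H3K27me3 and for input without antibody. All 3 samples came from the same cells, strain cross and stage, and each stands for 2 replicates. The deposited data analysed here are 1 list of regions per mark; no input file was analysed here. The lists hold positions on mouse build mm9 in steps of 200 bp, with no read counts and no replicate values. The depth behind a region is therefore unknown, no value has an error between replicates, and no difference between genes could be tested.

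H3K4me3, the trimethyl form of lysine 4 of histone H3, marks promoters, above all those of transcribed or CpG-rich genes. H3K27me3, the trimethyl form of lysine 27, is written by Polycomb and marks mostly silent genes. DNA methylation in mammals is maintained by Dnmt1, which copies the methyl marks of the parental strand onto the new strand after replication, together with Uhrf1, which binds hemimethylated DNA and recruits Dnmt1. New methylation is set by the de novo enzymes Dnmt3a and Dnmt3b, helped by Dnmt3l, a relative without catalytic activity that serves as their cofactor in germ cells. Primordial germ cells are known for losing most of their DNA methylation in mid-gestation.

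The sequences before annotated starts of these genes are shown first, because CpG-rich promoters are the usual place of both marks. They are RefSeq sequences of build GRCm38.p6, the 250 bases before 1 start per gene, in the direction of transcription, with every CpG in capitals. The coordinates are of that build and cannot be set against the mm9 positions of the regions. Where a gene has several starts, the start with the most CpGs is given, leaving out starts less than 500 bases downstream of another. At Dnmt1 this left out its richest start, the third. That start had 33 CpGs in the 300 bases around it, against 12 at the second start, which is printed.
Dnmt1 (chr9:20952980-20953229, minus strand): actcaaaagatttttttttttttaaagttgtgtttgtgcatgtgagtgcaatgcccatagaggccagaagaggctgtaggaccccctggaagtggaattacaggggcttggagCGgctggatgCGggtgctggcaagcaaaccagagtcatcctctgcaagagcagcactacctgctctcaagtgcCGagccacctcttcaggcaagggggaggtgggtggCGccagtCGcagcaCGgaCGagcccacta
Uhrf1 (chr17:56304063-56304312, plus strand): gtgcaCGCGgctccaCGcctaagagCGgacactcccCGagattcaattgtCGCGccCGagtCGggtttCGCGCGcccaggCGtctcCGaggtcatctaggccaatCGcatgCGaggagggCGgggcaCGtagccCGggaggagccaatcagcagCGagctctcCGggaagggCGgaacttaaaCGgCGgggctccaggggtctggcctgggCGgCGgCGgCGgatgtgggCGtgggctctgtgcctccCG
Dnmt3a (chr12:3806730-3806979, plus strand): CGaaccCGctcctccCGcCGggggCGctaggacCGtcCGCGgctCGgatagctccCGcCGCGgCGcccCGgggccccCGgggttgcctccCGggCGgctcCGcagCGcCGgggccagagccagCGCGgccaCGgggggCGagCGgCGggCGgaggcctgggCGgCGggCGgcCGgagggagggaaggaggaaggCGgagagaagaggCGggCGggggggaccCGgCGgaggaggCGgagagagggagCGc
Dnmt3b (chr2:153649199-153649448, plus strand): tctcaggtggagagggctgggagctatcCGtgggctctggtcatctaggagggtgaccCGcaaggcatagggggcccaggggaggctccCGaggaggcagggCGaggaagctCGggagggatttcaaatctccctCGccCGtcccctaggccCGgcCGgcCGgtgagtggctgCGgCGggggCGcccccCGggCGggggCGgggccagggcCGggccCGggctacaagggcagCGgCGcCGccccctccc
Dnmt3l (chr10:78042037-78042286, plus strand): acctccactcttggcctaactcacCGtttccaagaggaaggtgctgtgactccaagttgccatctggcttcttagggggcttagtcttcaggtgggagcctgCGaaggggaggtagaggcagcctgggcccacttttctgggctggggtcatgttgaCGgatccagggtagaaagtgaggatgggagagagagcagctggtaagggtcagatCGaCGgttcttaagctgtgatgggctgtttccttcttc

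All 5 windows held H3K4me3, and 3 of them also held H3K27me3. The windows of Uhrf1, Dnmt3b and Dnmt3l had both marks on the same sequence, and those of Dnmt1 and Dnmt3a had H3K4me3 alone. Each functional class was thus split by window. Of the 2 maintenance genes, the Uhrf1 window held both marks and the Dnmt1 window did not. Of the 3 de novo genes, the windows of Dnmt3b and Dnmt3l held both and that of Dnmt3a did not. A window can take in sequence of neighbouring genes, so this split describes windows and not the genes themselves. The marks were precipitated separately from pools of cells, and whether 1 cell or 1 nucleosome carries both cannot be read from an overlap of the lists.

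**Figure D1:**
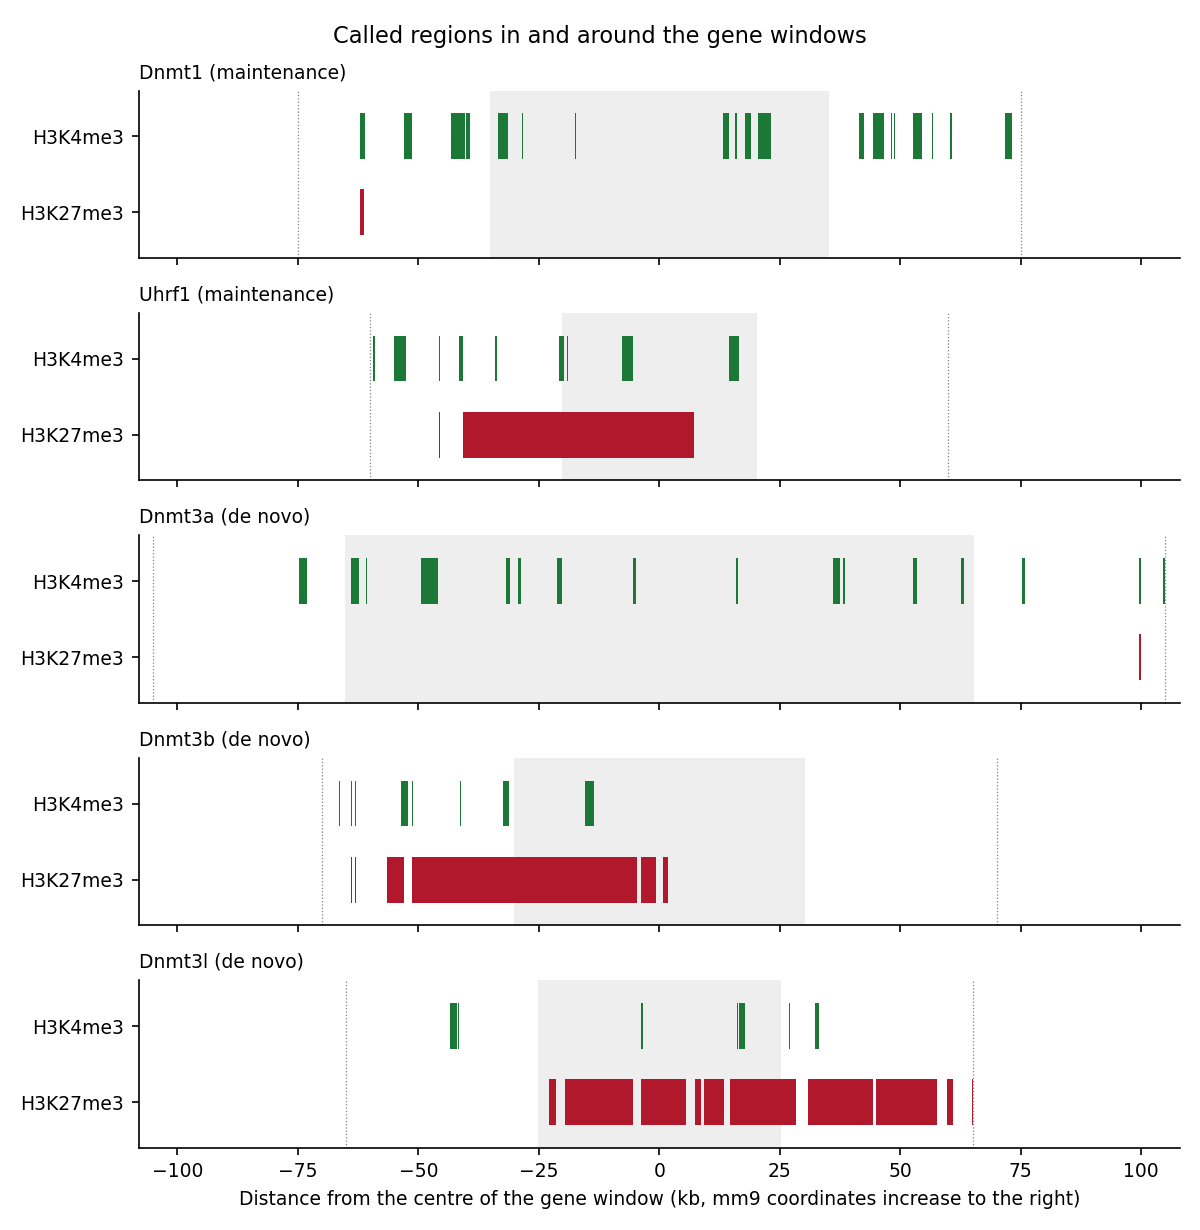
Called H3K4me3 (green) and H3K27me3 (red) regions in the 5 gene windows (grey) and 40 kb on either side (between the dotted lines), drawn by distance from the centre of each window in kb. Red bars fill much of the Uhrf1, Dnmt3b and Dnmt3l windows, and none lies in the Dnmt1 and Dnmt3a windows.

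Window sizes differed, so shares of the genome cut into tiles of the same length give the background. Tiles that held H3K4me3 also held overlapping H3K27me3 in 25.4% (40 kb, as for Uhrf1), 27.1% (50 kb, Dnmt3l), 28.7% (60 kb, Dnmt3b), 30.3% (70 kb, Dnmt1) and 37.6% (130 kb, Dnmt3a) of cases. Any H3K4me3 at all was found in 35.1% of 40-kb, 39.4% of 50-kb, 42.8% of 60-kb, 45.8% of 70-kb and 58.3% of 130-kb tiles. Tiles include sequence without genes, and 5 windows are too few to say that these genes differ from other genes.

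Counted by region, 7 of the 27 H3K4me3 regions (25.9%) shared at least 1 bp with H3K27me3, against 18.8% of all H3K4me3 regions in the genome (95% Wilson interval 18.4 to 19.1%, counting error only). The share in the windows is near that background. The 7 lay in the windows of Uhrf1, Dnmt3b and Dnmt3l, where 8 H3K4me3 regions were called; the 19 H3K4me3 regions of the Dnmt1 and Dnmt3a windows had no H3K27me3 region in the window to overlap. Regions of 1 window are neighbours and do not count as independent observations. All 7 lay wholly inside an H3K27me3 region, an arrangement found for 77.4% of all overlapping H3K4me3 regions, and 0 of the 7 had the same ends as the H3K27me3 region around it.

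At Dnmt1, the maintenance methyltransferase, the 70-kb window (chr9:20700001-20770000) held 7 H3K4me3 regions and no H3K27me3. The H3K4me3 regions covered 8.0 kb, or 11.4% of the window, and 3.14% of 70-kb tiles held as much. The widest, of 2.8 kb, lay at chr9:20755401-20758200, and 6.42% of all H3K4me3 regions were as wide or wider. Next to it, within 10 kb, stood a group of 3 further regions of 1.2, 0.4 and 1.2 kb, the first of them starting at 20748201. The other end of the window held a region of 2.0 kb (chr9:20701601-20703600) and 2 regions of a single 200-bp step. Between these groups lay 30.4 kb with no region of either mark. The nearest H3K27me3 was a 1.0-kb region 26.2 kb below the window, and on the other side the nearest was 277.4 kb away. The flanking coding genes in the GRCm38 gene order are Eif3g and S1pr2. No gene annotation of build mm9 was used here, so no region could be placed at a start site or assigned to Dnmt1 rather than to a neighbour, and the same holds for the other windows.

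At Uhrf1, the partner that brings Dnmt1 to hemimethylated DNA, most of the 40-kb window (chr17:56430001-56470000) lay in 1 wide H3K27me3 region. That region ran over 48.0 kb, from 56409201 to 56457200, and ranked 38 by width among the 18731 H3K27me3 regions. It covered 27.2 kb of the window, or 68.0%, and reached 20.8 kb beyond it on the side of the neighbour Arrdc5. As much H3K27me3 was found in 0.624% of 40-kb tiles. The window also held 4 H3K4me3 regions, 3 inside the H3K27me3 region and 1 outside.

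The widest H3K4me3 region at Uhrf1, of 2.4 kb (chr17:56442201-56444600), stood inside the H3K27me3 region, 33.0 kb from its lower end and 12.6 kb from its upper end. Of all H3K4me3 regions 10.3% were as wide or wider, so it was not a narrow call. The other regions inside were 1.0 kb (starting at 56429201, on the edge of the window) and 0.2 kb wide. The fourth, of 2.2 kb (chr17:56464401-56466600), lay 7.2 kb above the end of H3K27me3, on the side of Kdm4b, a histone demethylase gene that follows Uhrf1 in the gene order. The whole 48.0-kb region held 4 H3K4me3 regions, which covered 8.75% of it.

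At Dnmt3a, a de novo methyltransferase and the gene with the largest of the windows (chr12:3790001-3920000, 130 kb), 12 H3K4me3 regions were called and no H3K27me3. They covered 11.8 kb, or 9.08% of the window, and 4.12% of 130-kb tiles held as much. The widest, of 3.4 kb (chr12:3805601-3809000), was also the widest H3K4me3 region of all 5 windows, and 3.31% of all H3K4me3 regions were as wide or wider. Further regions measured 1.6 kb (3791001 to 3792600), 1.4 kb (3891001 to 3892400) and 1.0 kb (3833801 to 3834800). The remaining 8 regions, of 0.2 to 0.8 kb, were spread over the window between and beyond these. The nearest H3K27me3 region, 0.4 kb wide, lay 34.6 kb above the window, towards Pomc. On the side of Dtnb the nearest was 422.4 kb away. From the widest H3K4me3 region the distance to H3K27me3 was 145.6 kb. No background of such distances over the genome was computed, so they cannot be called long or short.

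At Dnmt3b, the other catalytic de novo enzyme, the 60-kb window (chr2:153460001-153520000) held a single H3K4me3 region and 3 H3K27me3 regions. The H3K4me3 region measured 1.8 kb (chr2:153474601-153476400), and 20.5% of all H3K4me3 regions were as wide or wider. Among the 9830 H3K4me3 regions of at least 1800 bp, 21.4% overlapped H3K27me3. The region at Dnmt3b stood inside an H3K27me3 region of 46.8 kb (153438601 to 153485400), 36 kb from its lower and 9.0 kb from its upper end. That region ranked 40 by width, 2 places behind the one at Uhrf1.

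The 46.8-kb region began 21.4 kb below the Dnmt3b window, on the side of Commd7, and held 4 H3K4me3 regions in all, 3 of them outside the window. It was followed by H3K27me3 regions of 3.2 and 1.0 kb with no H3K4me3. Together the 3 covered 29.6 kb, or 49.3% of the window, and 0.998% of 60-kb tiles held as much. The rest of the window up to its end, 28.2 kb towards Mapre1, held neither mark.

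The wide H3K27me3 regions at Uhrf1 and Dnmt3b were alike in layout. Each was over 40 kb wide, began outside its window, held 4 H3K4me3 regions and enclosed its widest one nearer to the upper end. H3K27me3 regions of at least 40 kb numbered 65 in the genome. Of these, 89.2% overlapped H3K4me3 by at least 1 bp, so overlap with H3K4me3 is usual at this width. How many of the 65 share the other features was not computed, so the likeness cannot be called particular to these genes. Beginning outside a window also depends on where the window was set.

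At Dnmt3l, the cofactor without catalytic activity, H3K27me3 was broken into 6 regions in place of 1 wide domain. The 50-kb window (chr10:77490001-77540000) was covered to 81.6% (40.8 kb) by H3K27me3, the highest share of the 5 windows, and 0.311% of 50-kb tiles held as much. The widths, by position, were 1.4, 14.2, 9.4, 1.2, 4.2 and 13.8 kb, and the widest, at chr10:77495401-77509600, held no H3K4me3. Of all H3K27me3 regions 3.54% were as wide as it or wider. With gaps under 3 kb joined, a setting chosen after the values were seen, these regions became part of a stretch of 83.8 kb (77492201 to 77576000). This stretch was made of 9 regions with gaps of 0.6 to 2.4 kb and was covered to 85.4%. It reached past the window in the direction of Icosl, which encodes a ligand of T-cell costimulation. The gene on the other side is Aire, a regulator of self-antigen expression in the thymus, which overlaps Dnmt3l in the gene table. The same joining made a stretch of 58.4 kb from 4 H3K27me3 regions at Dnmt3b. It left the region of 48.0 kb at Uhrf1 as it was.

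H3K4me3 at Dnmt3l was limited to 3 regions. They measured 0.4 kb (chr10:77511201-77511600), 0.2 kb (77531201 to 77531400) and 1.2 kb (77531601 to 77532800), covering 1.8 kb or 3.60% of the window, and 19.5% of 50-kb tiles held as much. Tiles of that length with any H3K4me3 had a median of 1.6 kb. The first lay at the very edge of the 9.4-kb H3K27me3 region, sharing its lower end. The others lay 1.6 and 2.0 kb from the lower end of the 13.8-kb region. The widest of these regions, at 1.2 kb, was the narrowest maximum of the 5 windows, although wider than the 800-bp median of all H3K4me3 regions. Whether it belongs to Dnmt3l or to a neighbour could not be told.

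**Figure D2:**
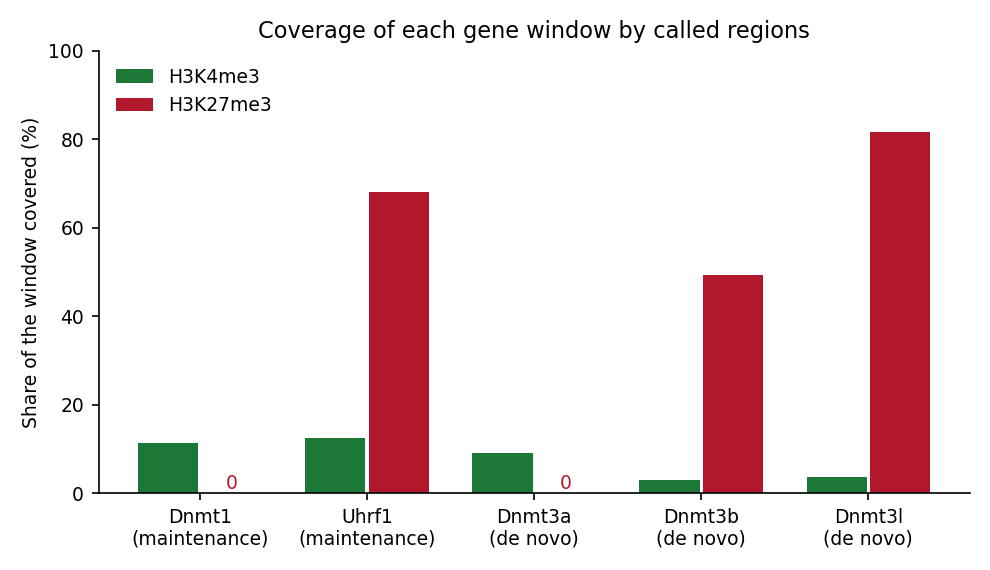
Share of each gene window covered by called H3K4me3 (green) and H3K27me3 (red) regions, in percent of the window length, 1 list per mark and so without error bars. H3K27me3 covered 68.0% at Uhrf1, 49.3% at Dnmt3b and 81.6% at Dnmt3l and 0 at Dnmt1 and Dnmt3a.

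Set side by side, H3K4me3 covered 9.08% of the Dnmt3a window, 3.00% of the Dnmt3b window and 3.60% of the Dnmt3l window among the de novo genes, and 11.4% of the Dnmt1 window and 12.5% of the Uhrf1 window among the maintenance genes. Summed by class, H3K4me3 covered 6.42% of the de novo windows and 11.8% of the maintenance windows, and H3K27me3 29.3% and 24.7%. These sums depend on window size and on single genes, and with 3 and 2 genes the difference was not tested. The Uhrf1 window, the shortest of the 5, had the highest H3K4me3 coverage, and the windows of Dnmt3b and Dnmt3l had the lowest. Of the 5.0 kb of H3K4me3 in the Uhrf1 window, 2.8 kb lay within H3K27me3. The other 2.2 kb lay outside it, on the side of Kdm4b.

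**Figure D3:**
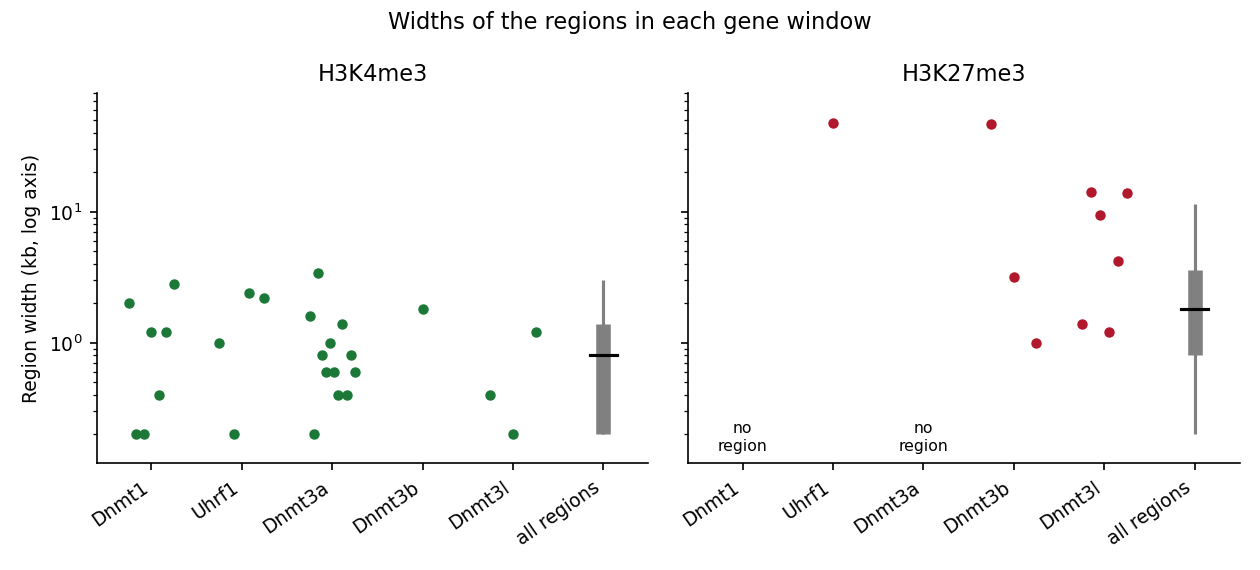
Width in kb (log axis) of each H3K4me3 (left) and H3K27me3 (right) region overlapping a gene window, 1 point per region, beside all regions of the mark (black line, median; thick bar, quartiles; thin line, 5th to 95th percentile). The H3K27me3 regions of 48.0 kb at Uhrf1 and 46.8 kb at Dnmt3b stand far above the median of 1.8 kb for all regions.

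The H3K4me3 widths gave no single order between the windows with both marks and those with H3K4me3 alone, since medians and widest regions ran opposite ways. The median H3K4me3 width over the 27 regions was 800 bp, equal to the 800 bp of all H3K4me3 regions. It was 1100 bp over the 8 regions of the windows with both marks and 800 bp over the 19 of the windows with H3K4me3 alone. The widest H3K4me3 region per window was 3.4 kb at Dnmt3a, 2.8 kb at Dnmt1, 2.4 kb at Uhrf1, 1.8 kb at Dnmt3b and 1.2 kb at Dnmt3l. Both windows without H3K27me3 thus stood above the 3 windows with it, whichever gene in the window each region belongs to. The windows of Dnmt3a and Dnmt1, at 130 and 70 kb, were also the longest, and the part of window length in this order was not tested. For H3K27me3 the median over the 10 regions was 6800 bp, against 1800 bp for all H3K27me3 regions. The Dnmt3l window alone gave 6 of these 10, and a wide region is more likely to touch a window than a narrow one. Of these 10, 4 overlapped H3K4me3, near the 37.5% of all H3K27me3 regions (95% Wilson interval 36.8 to 38.2%). The 4 were the single region at Uhrf1, the 46.8-kb region at Dnmt3b and the 9.4-kb and 13.8-kb regions at Dnmt3l.

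The sequences at the annotated starts, which the choice of windows did not use, did not follow the split between the marks. The RefSeq table gave 12 starts for the 5 genes, and CpGs were counted from 250 bases before to 50 bases after each. Over all 32841 such promoters the median was 7 CpGs (quartiles 3 and 20). Dnmt3a, with H3K4me3 alone in its window, had the richest starts, with 46, 47 and 18 CpGs, and 1.44% of all promoters held 47 or more. Dnmt3b and Uhrf1, with both marks in their windows, were also rich, with 30 at the single start of Dnmt3b and 12 and 33 at the starts of Uhrf1. Dnmt1 had 2, 12 and 33 CpGs at its starts, in 5′ to 3′ order. Dnmt3l had 6, 4 and 3 and was the only gene with no start above the median. By the richest start of each gene, Dnmt3l had the fewest CpGs, while the lowest single start was the first of Dnmt1. The printed Dnmt3l sequence holds 5 CpGs and that of Dnmt3a 38.

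**Figure D4:**
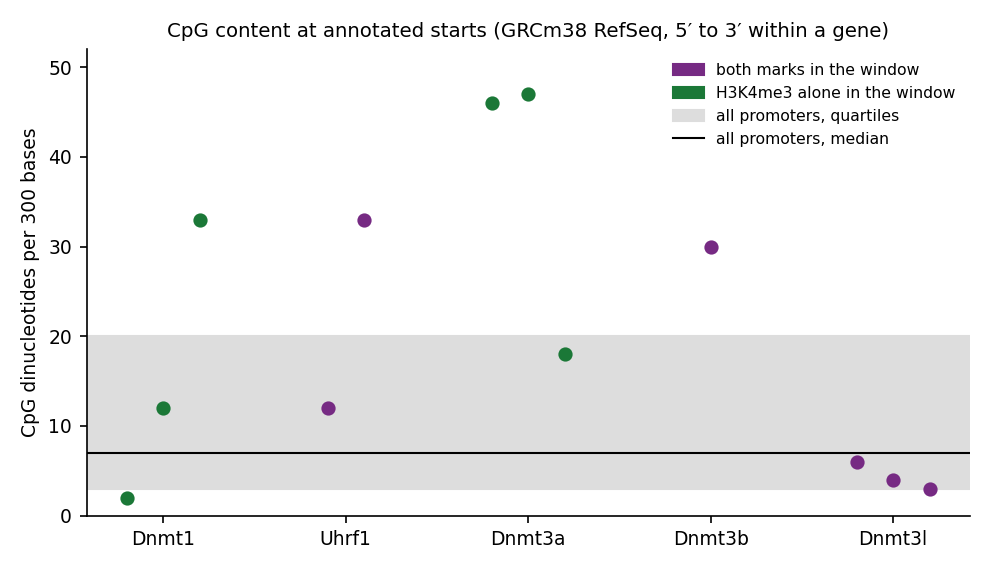
CpG dinucleotides in the 300 bases around each annotated start of the 5 genes, in 5′ to 3′ order within a gene, coloured by the marks in the gene window, against the quartiles (grey band) and median (line) of all promoters. Starts of Dnmt1, Dnmt3a, Uhrf1 and Dnmt3b reach above the band of 3 to 20, and the starts of Dnmt3l, at 3 to 6, do not.

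A pair of short motifs was searched in the same 300 bases on both strands, chosen with the sequences in view. The letters TTTCGCGC or TTTGGCGC, a form of the site of E2F factors, which drive genes of DNA replication, occur in 0.813% of all promoters. They were present at 2 of the 5 starts of the maintenance genes, the third start of Dnmt1 with 2 matches and the second start of Uhrf1 with 1, and at 0 of the 7 starts of the de novo genes. In the printed Uhrf1 sequence the match TTTCGCGC begins at base 66. The 2 maintenance starts with a match each held 33 CpGs, a count that 8.56% of all promoters reached. The share of promoters of like CpG content that hold these letters was not computed. The letters CACGTG, the core of the E-box, occur in 7.15% of all promoters and were found at the third start of Dnmt3a and the second start of Dnmt3l. A match of letters is a description of the sequence and does not show that a factor binds there. The E2F letters were found at a gene with both marks in its window (Uhrf1) and at a gene with H3K4me3 alone there (Dnmt1). The E-box letters were likewise found at Dnmt3l and Dnmt3a.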

How the data were processed

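ChIP-seq was done for both marks. Fixation was in 0.25% formaldehyde for 10 min with 2.4 µg of antibody per precipitation and 20 amplification cycles (input 15), per the labels' protocols. The submitters' processing notes name Bowtie 0.12.7 and mm9. The authors deposited a list of called regions for each mark, which the file names describe as contiguous chromHMM output (a program that assigns chromatin states to fixed bins of the genome). Its settings, whether it used the input, and how the 2 replicates were combined: not given in the sources used here. Deposited values are positions in bp, all on a 200-bp grid, without counts, scores or p-values, so the depth is unknown.

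Regions sharing at least 1 bp with a window of the 5 genes were taken, and all are covered by the text. The windows, lists and alternatives were chosen with earlier results of these data known. Widths are those of the whole region, and covered lengths are cut at the window's edge. Coordinates count from 1. The background is every tile of each window's length, from the first base to the last region of each chromosome, leaving out the mitochondrial genome. Gene order, names and promoter sequences came from RefSeq tables of GRCm38.p6, in which all 5 genes were matched. Their coordinates were not compared with mm9. Naming the side on which a neighbour lies assumes the same gene order and direction in mm9, which was not checked. No test was run, because each mark has 1 list. Overlap and joining were tested on simulated data. The versions were matplotlib 3.10.9, pandas 2.3.3, scipy 1.17.1, numpy 2.4.6 and Python 3.11.15.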

Additional observations from a re-analysis of the deposited data

How the results depend on the processing

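Of 130 values computed for 25 results under 6 alternatives, 116 stayed within 1.5 times the reported value and 14 moved. Those that stayed include every H3K27me3 length and widest H3K27me3 region at Dnmt1 and Dnmt3a, all 0. The nearest H3K27me3 region lay 26.2 kb outside the Dnmt1 window and 34.6 kb outside that of Dnmt3a. None of the alternatives could therefore change these values, and they say nothing about stability. H3K4me3 was found in 5 windows and H3K27me3 in 3 under 4 of the 5 alternatives run on these counts. With regions wholly inside the window these counts were 5 and 2, because the region at Uhrf1 crosses the window's edge, which leaves 0 bp of H3K27me3 and a widest region of 0 bp there. The same setting left 4200 bp of H3K27me3 and a widest region of 3200 bp at Dnmt3b. The 27 H3K4me3 regions became 44 with windows widened by 20 kb, and the 7 that overlap H3K27me3 became 12 with that setting, 4 among regions wider than 400 bp and 4 with an overlap of at least 400 bp. Widening also took H3K27me3 length to 49600 bp at Dnmt3b and 47200 bp at Uhrf1, and H3K4me3 length to 19000 bp at Dnmt1, 3200 bp at Dnmt3b and 4400 bp at Dnmt3l. Joining H3K27me3 regions less than 3 kb apart, chosen after seeing the data, took the widest at Dnmt3l to 83800 bp. These follow from the settings themselves. No paired analysis was possible because each mark has 1 list, and for the same reason no replicate could be left out. The depth is unknown, so the absence of a call at Dnmt1 and Dnmt3a says only that no H3K27me3 region was called there.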
